A study of Homo sapiens with 18 samples.

Results

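The genes described here are 34 genes of cholesterol and fatty acid synthesis, taken by symbol from a list of the pathways and found in a table of 57500 genes measured by RNA-seq in 18 libraries of IMR90 cells, which are human lung fibroblasts. By role they are 18 enzymes of the sterol pathway, 5 genes of its regulation and of sterol transport inside the cell (INSIG1, STARD4, SREBF1, SREBF2 and SCAP), 8 enzymes of fatty acid synthesis, elongation and desaturation, and 3 genes of sterol efflux and uptake control (ABCA1, ABCG1 and MYLIP). All 34 passed the filter on low counts and were tested among 16994 genes. A further 39 genes of the same pathways, of which 38 were tested, are described at the end.

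Cholesterol and fatty acids are both built in the cytosol and endoplasmic reticulum from acetyl-CoA, which cells make from citrate exported by mitochondria and, through ACSS2, from acetate. In the sterol branch, acetyl-CoA units are joined to HMG-CoA, turned through mevalonate and isoprenoid diphosphates into squalene, and closed and trimmed to cholesterol. In the fatty acid branch, acetyl-CoA carboxylase makes malonyl-CoA and fatty acid synthase joins it into palmitate, which elongases and desaturases then modify. Transcription of both branches is driven by the SREBP factors, which SCAP carries to the Golgi for cleavage when sterols are low and INSIG1 holds back when sterols are high. Oxysterols activate the LXR receptors, whose known targets include the efflux pumps ABCA1 and ABCG1, the ubiquitin ligase MYLIP, SREBF1 and SCD.

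There were 6 groups of 3 libraries. Prol were proliferating cells, and Sen (IR) were cells made senescent by irradiation and, per the study's methods, collected on day 12. Sen (IR) + CCCP were irradiated cells given the mitochondrial uncoupler CCCP for 48 h from day 1. Per the study's methods this was done in IMR90 engineered to overexpress Parkin, so that CCCP triggers removal of the mitochondria. The study's peer review file marks the senescent control in a heat map of such groups as Parkin-overexpressing too. Sen (IR) + CCCP + acetate received 20 mM sodium acetate from day 3, Sen (IR) + CCCP + mtDNA were transfected with mtDNA on day 10, and the last group, Sen (IR) + CCCP + mtDNA + acetate, received both. The day of collection of the mtDNA groups and the start of acetate in the last group are not given in the sources used here, so that these groups may also differ from the others in them. The labels name the cells of all 6 groups only as IMR90, and do not say that the 3 libraries of a group came from separate cultures, so p-values measure the spread between these libraries, which may be technical. The study's legends for heat maps of such groups give n = 3 independent experiments, without naming these libraries. No library had CCCP on cells that keep their mitochondria, so that CCCP itself and the loss of mitochondria cannot be told apart, and none had acetate without CCCP. No group is labelled as transfected without DNA or with other DNA. In the comparisons of mtDNA below, mtDNA and the transfection itself therefore cannot be told apart.

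The libraries held between 24624886 and 46224280 counted reads each. Transcripts of mtDNA made up 2.62% of counts in Prol, 2.11% in Sen (IR) and between 0.0505% and 0.132% in the means of the 4 groups given CCCP. All 9 fibroblast markers examined were above 1 TPM in every library, and their summed TPM ranged from 15895 to 17943 in Prol, 10137 to 12170 in Sen (IR), 5598 to 5807 with CCCP, 4215 to 4354 with acetate, 5040 to 5202 with mtDNA and 4009 to 4416 with both. All 3 adipocyte and both hepatocyte markers were under 1 TPM in every library. So were 3 of 5 epithelial, 3 of 4 endothelial and 4 of 5 leukocyte markers. Of the epithelial markers 1 was over 1 TPM in every library. The highest summed TPM of the epithelial markers was 48.4 in Prol, 21.2 in Sen (IR), 5.62 with CCCP and 10.7 with CCCP, mtDNA and acetate. No endothelial or leukocyte marker was over 1 TPM in every library. The proliferation marker MKI67 was at 59.1 ± 0.983 CPM in Prol, 15.3 ± 2.21 in Sen (IR), 30.4 ± 1.81 with CCCP, 3.19 ± 0.424 with CCCP and acetate, 26.1 ± 2.70 with CCCP and mtDNA and 4.80 ± 1.36 with all 3 (SD, n = 3). Among further marker genes, CCNA2 had 40.4, 45.7 and 43.2 CPM with CCCP, above every library of Prol (28.2, 33.3 and 32.5 CPM). TOP2A (1.00), LMNB1 (0.64) and CDKN1A (0.15) also rose with CCCP against Sen (IR) on the log2 scale. MKI67, TOP2A and LMNB1 stayed below every library of Prol with CCCP. With acetate against CCCP, CDKN1A rose (0.75) while TOP2A (-2.56), CCNA2 (-2.46) and LMNB1 (-2.19) fell. The part of these markers in the results below was not tested. Sen (IR) replicate 3 and Sen (IR) + CCCP + mtDNA + acetate replicate 2 stood apart from the other libraries of their groups, with a chi-square per gene of 22.2 to 28.3 against them, where the other 14 pairs of libraries of 1 group had 2.78 to 7.75. In bulk RNA, fewer cells of a kind and less RNA per cell cannot be told apart.

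The promoters of 4 members are shown first, those with the largest falls in Sen (IR) + CCCP against Sen (IR) among the members for which such a sequence was used here. They come from RefSeq's promoter windows (GRCh38.p14, 250 bases before to 50 after the gene start), cut off at the first base that GENCODE release 44 places in the gene. Such windows were found for 29 of the 34 members. Capitals mark the CCAAT box, to which NF-Y binds beside SREBP in many sterol genes, searched on both strands as CCAAT or ATTGG, and the classical sterol regulatory element, to which SREBP itself binds, searched on both strands by its exact letters, which are the first run of capitals in the SREBF2 stretch. The 2 motifs did not overlap in these stretches.
HMGCS1: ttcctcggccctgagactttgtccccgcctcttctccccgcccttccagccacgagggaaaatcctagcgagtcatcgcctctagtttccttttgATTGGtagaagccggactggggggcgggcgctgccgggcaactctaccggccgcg
STARD4: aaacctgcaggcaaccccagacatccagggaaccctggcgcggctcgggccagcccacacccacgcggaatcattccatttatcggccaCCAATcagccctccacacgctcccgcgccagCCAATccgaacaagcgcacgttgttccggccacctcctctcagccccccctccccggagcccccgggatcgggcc
INSIG1: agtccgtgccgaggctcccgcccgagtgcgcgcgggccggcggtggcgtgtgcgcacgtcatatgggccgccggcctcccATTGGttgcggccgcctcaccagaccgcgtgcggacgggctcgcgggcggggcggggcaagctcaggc
SREBF2: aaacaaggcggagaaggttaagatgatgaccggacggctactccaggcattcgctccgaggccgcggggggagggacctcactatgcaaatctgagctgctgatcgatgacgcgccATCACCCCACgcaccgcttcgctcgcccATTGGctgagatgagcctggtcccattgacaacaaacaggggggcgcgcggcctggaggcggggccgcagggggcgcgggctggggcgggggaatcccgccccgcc
The 4 stretches lie at chr5:43313513-43313662 on the minus strand, chr5:111512591-111512785 on the minus strand, chr7:155297628-155297775 on the plus strand and chr22:41832855-41833104 on the plus strand. The box lies 155 bases before the RefSeq start of HMGCS1, 161 and 130 bases before that of STARD4, 170 before that of INSIG1 and 106 before that of SREBF2, whose sterol regulatory element begins at 134. A CCAAT box was found in 13 of the 15 sterol enzyme windows (86.7%) and in 22 of the 29 member windows (75.9%), against 39.7% of the 27305 genes with a window. Over the bases upstream of the start alone the shares were 72.4% of the member windows and 37.0% of all. The exact sterol regulatory element was found in the window of SREBF2 and of no other member, and in those of 16 genes in all (0.059%). These are matches of letters and not measured binding.

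Compared between genes on the length-corrected TPM scale, the levels of the members differed widely within each group. MSMO1, the sterol C4-methyl oxidase, was highest in Sen (IR) with 194 ± 19.2 TPM, followed by IDI1, the isopentenyl diphosphate isomerase, with 143 ± 4.94 and the elongase ELOVL5 with 141 ± 9.71 (SD, n = 3). IDI1 and ELOVL5 did not differ beyond their spread. SCD, the stearoyl-CoA desaturase, was the highest member in Prol with 328 ± 11.2 TPM. ACACB, the acetyl-CoA carboxylase of the mitochondrial surface, was the lowest member in all 6 groups, between 1.03 and 1.19 TPM in the means. The median member was at 42.1 TPM in Sen (IR) and at 28.9 TPM in Sen (IR) + CCCP, although TPM moved the median of all genes up by 0.44 on the log2 scale between these groups. The comparisons between groups below rest on CPM with library sizes scaled by TMM, and give TPM as an alternative. TMM is built to keep most genes level between libraries, so the move of the median by only 0.03 follows from its construction. Whether the typical gene kept its level per cell was not tested.

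**Figure D1:**
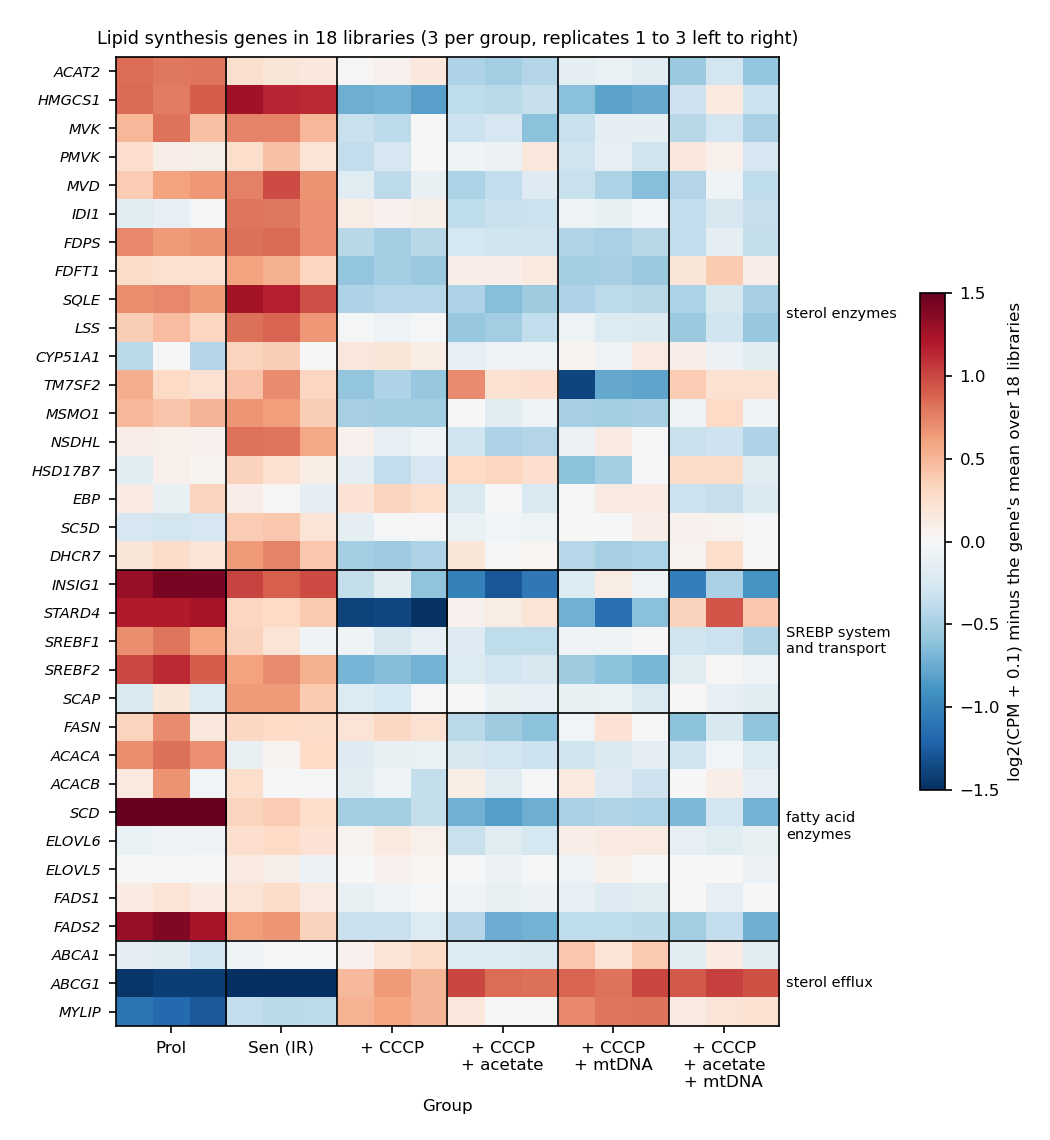
Heat map of the 34 genes (rows, by role) in the 18 libraries (columns, 3 per group), coloured by log2(CPM + 0.1) minus the mean of the gene over all libraries, with colours held at -1.5 and 1.5. Most sterol enzymes and the SREBP system are red in Prol and Sen (IR) and blue in Sen (IR) + CCCP, while ABCG1 and MYLIP run the other way.

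The first question was what loss of mitochondria does to these genes in senescent cells, in Sen (IR) + CCCP against Sen (IR). Of the 34 members, 25 fell and 4 rose at an adjusted p of 0.05, where 31.3% of all genes tested fell and 34% rose. Among the sterol enzymes 15 of 18 fell and 1 rose, with a median log2 fold change of -0.88 where the median of all genes was 0.03; the median was -0.62 by library size alone and -0.45 on the scale of the authors' TPM. All 5 genes of regulation and transport fell, with a median of -1.30 (-1.04 and -0.87 on those scales, with 4 lower on each). Of the 8 fatty acid enzymes 5 fell and the other 3 did not pass the test, with a median of -0.25. By library size alone 2 were lower and 1 higher (median 0.01), and as TPM 2 were lower and 5 higher (median 0.18). The sign of this median thus depended on the scaling. The median of all genes moved by 0.03, 0.27 and 0.44 on these scales in turn, and lay above that of the fatty acid enzymes on each. All 3 genes of sterol efflux rose, with a median of 0.94. In 24 members every library with CCCP lay below every library of Sen (IR), and in 4 above, where this held for 32.3% and 35.4% of all genes. Without Sen (IR) replicate 3 the members called were 24 lower and 3 higher. Scaling by library size alone, which moved the median of all genes by 0.27, gave 20 lower and 6 higher. Scaling as TPM, which moved it by 0.44, gave 18 lower and 11 higher, with 12 sterol enzymes lower and 3 higher. The shares of all genes called were not counted on these added scales, here or in the comparisons below. Counts on them therefore cannot be set against all genes.

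Among the sterol enzymes, HMGCS1, the synthase that makes HMG-CoA, had 91.8, 84.5 and 83.1 CPM in Sen (IR) replicates 1 to 3 and 23.1, 23.3 and 21.8 CPM in Sen (IR) + CCCP. The groups did not overlap, and HMGCS1 fell the most of all members (log2 fold change -1.92 ± 0.09 (SE), adjusted p = 2.40e-14 in edgeR). SQLE, the squalene epoxidase, had 147, 139 and 121 CPM in Sen (IR) and 45, 45.8 and 45.9 CPM with CCCP, again without overlap (log2 fold change -1.57 ± 0.07 (SE), adjusted p = 1.40e-14 in edgeR). FDPS, which makes farnesyl diphosphate, had 89.1, 91.2 and 80.8 CPM and 37.7, 35.2 and 37.9 CPM (log2 fold change -1.24 ± 0.06 (SE), adjusted p = 5.05e-14 in edgeR). DHCR7, the last reductase of the pathway, had 45.1, 48.5 and 38.4 CPM and 20.3, 19.9 and 21 CPM (log2 fold change -1.11 ± 0.08 (SE), adjusted p = 4.14e-11 in edgeR). In all 4 genes the 3 libraries with CCCP lay close together, and Sen (IR) replicate 3 was the lowest of its group in each. The other enzymes that fell ran from -1.07 for MSMO1 to -0.39 for SC5D, the lathosterol oxidase, on the log2 scale. SC5D had no fall on the scale of TPM (0.04), and the falls of PMVK (-0.09 there) and HSD17B7 (-0.08) were not called on it. EBP, the sterol isomerase, was the 1 enzyme that rose, from 9.91, 9.40 and 8.34 CPM to 10.7, 11.7 and 11.1 CPM (log2 fold change 0.28 ± 0.10 (SE), adjusted p = 0.0209 in edgeR). The call of EBP was lost without Sen (IR) replicate 3 (0.21) and without CCCP replicate 2 (0.24), and 36.4% of its exon bases are shared with another gene in GENCODE release 44. ACAT2, the cytosolic acetyl-CoA acetyltransferase at the start of the pathway, had 28.2, 27.1 and 26.6 CPM and 24.2, 25.1 and 26.6 CPM, and CYP51A1, the lanosterol demethylase, 9.70, 9.94 and 7.68 CPM and 8.67, 8.74 and 8.35 CPM; neither passed the test.

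In the SREBP system, SREBF2, the gene of the SREBP that acts mainly on sterol genes, had 87, 93.7 and 83.3 CPM in Sen (IR) and 35.5, 36.6 and 35 CPM with CCCP (log2 fold change -1.30 ± 0.06 (SE), adjusted p = 7.29e-14 in edgeR). INSIG1, itself a target of SREBP, had 39.96, 36.7 and 39.1 CPM and 15.4, 17.7 and 13 CPM (log2 fold change -1.32 ± 0.11 (SE), adjusted p = 4.35e-10 in edgeR). STARD4, a carrier of sterol between membranes, had 74.5, 73 and 77.8 CPM and 22.7, 23.1 and 21.2 CPM (log2 fold change -1.75 ± 0.12 (SE), adjusted p = 2.88e-11 in edgeR). In these 3 genes every library with CCCP was below every library of Sen (IR). SCAP, the escort of SREBP, had 46.6, 46.5 and 39.2 CPM and 25.9, 24.7 and 29.3 CPM, without overlap (log2 fold change -0.73 ± 0.09 (SE), adjusted p = 3.01e-07 in edgeR). SREBF1, the gene of the SREBP that acts more on fatty acid genes, had 19.5, 17.7 and 14.7 CPM and 14.7, 13 and 14.1 CPM, where replicate 3 of Sen (IR) and replicate 1 with CCCP met at the same level (log2 fold change -0.32 ± 0.09 (SE), adjusted p = 0.00385 in edgeR). This fall was lost without Sen (IR) replicate 1 (-0.21), was not called by library size alone (-0.06) and turned to 0.11 on the scale of TPM.

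Among the fatty acid enzymes, FADS2, the delta-6 desaturase, had 152, 156 and 125 CPM in Sen (IR) and 77.8, 77.8 and 85.3 CPM with CCCP (log2 fold change -0.85 ± 0.09 (SE), adjusted p = 1.43e-08 in edgeR). SCD had 156, 161 and 148 CPM and 85.7, 86.8 and 96.2 CPM (log2 fold change -0.79 ± 0.08 (SE), adjusted p = 6.29e-09 in edgeR). Neither gene overlapped between the groups. FASN, the fatty acid synthase itself, had 38.8, 38.3 and 38.2 CPM and 36, 38.6 and 36.6 CPM, overlapped and did not pass the test. ACACA, the cytosolic acetyl-CoA carboxylase, fell by 0.22 on the log2 scale, ELOVL6 by 0.16 and FADS1 by 0.27, and on the scale of TPM these 3 were called higher instead (0.20, 0.26 and 0.16). The call of ACACA was also lost without Sen (IR) replicate 3 (-0.10), which at 68.7 CPM was the highest of 51.7, 57.6 and 68.7 CPM, and without CCCP replicate 1 (-0.19). ACACB and the elongase ELOVL5 did not pass the test. The mean TPM of FASN was 16.3 in Sen (IR) and 21.2 with CCCP, that of ELOVL5 141 and 188, that of ACAT2 25.3 and 31.5, and that of CYP51A1 8.89 and 11.3, each higher with CCCP where the mean CPM was lower.

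Of the efflux genes, ABCG1 had 2.56, 2.76 and 3.13 CPM in Sen (IR) and 14.8, 16.4 and 15 CPM with CCCP, the largest rise among the members (log2 fold change 2.46 ± 0.09 (SE), adjusted p = 1.55e-15 in edgeR). MYLIP, whose product marks lipoprotein receptors for breakdown, had 13, 12.6 and 12.7 CPM and 24.1, 25.2 and 23.8 CPM (log2 fold change 0.94 ± 0.06 (SE), adjusted p = 1.99e-11 in edgeR). ABCA1, the pump that loads cholesterol onto apolipoprotein A-I, had 87.2, 89 and 91.4 CPM and 94.8, 104 and 111 CPM (log2 fold change 0.21 ± 0.07 (SE), adjusted p = 0.0136 in edgeR). None of the 3 overlapped between the groups, and the call of ABCA1 alone among them was lost when a library was left out (0.16 without CCCP replicate 3).

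**Figure D2:**
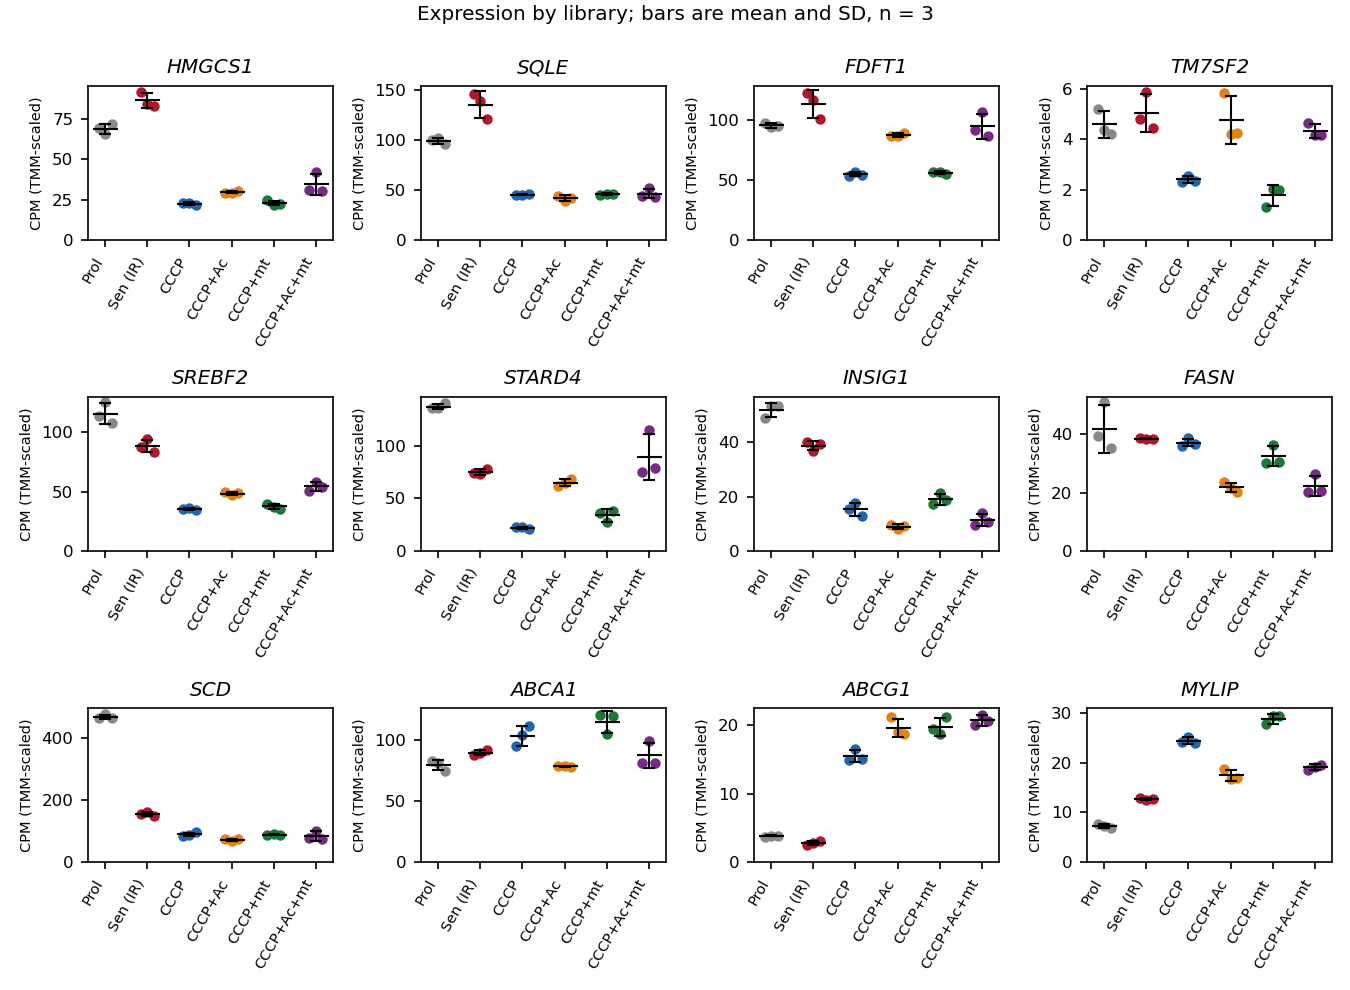
CPM on TMM-scaled library sizes (vertical axes, from 0) of 12 members in the 6 groups, with 1 point per library and bars for the mean and SD (n = 3). HMGCS1 and SQLE stay low in all 4 groups given CCCP, FDFT1, TM7SF2 and STARD4 are higher in the groups given acetate, INSIG1 and FASN are lower there, and ABCG1 is high in every group given CCCP.

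The next comparison asked what acetate does in cells without mitochondria, in Sen (IR) + CCCP + acetate against Sen (IR) + CCCP. Of the 34 members 10 rose and 12 fell, where 28.8% of all genes tested rose and 28.3% fell, so that the shares of the members called, 29.4% and 35.3%, were near those of all genes. The sterol enzymes were split, with 7 higher and 5 lower and a median log2 fold change of -0.06 where that of all genes was 0.01. In regulation and transport 2 rose and 1 fell. Of the fatty acid enzymes 4 fell and the other 4 did not pass the test, with a median of -0.23. Of the efflux genes 1 rose and 2 fell. The libraries did not overlap in 16 members that were lower and 10 that were higher with acetate, where 32.8% and 33.2% of all genes were so placed. Library size alone, which moved the median of all genes by -0.11, gave 9 higher and 19 lower, and TPM gave 9 and 17.

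FDFT1, the squalene synthase, had 53.2, 56.5 and 54.5 CPM with CCCP and 86.4, 86.4 and 89.2 CPM with CCCP and acetate, without overlap (log2 fold change 0.67 ± 0.07 (SE), adjusted p = 1.84e-08 in edgeR). TM7SF2, a sterol C14-reductase, had 2.31, 2.55 and 2.36 CPM and 5.84, 4.19 and 4.24 CPM, with acetate replicate 1 above the other libraries of both groups (log2 fold change 0.96 ± 0.16 (SE), adjusted p = 2.50e-05 in edgeR). DHCR7 had 20.3, 19.9 and 21 CPM and 33, 28.4 and 29.7 CPM (log2 fold change 0.57 ± 0.08 (SE), adjusted p = 2.20e-06 in edgeR). These 3 enzymes and HSD17B7 (0.56), MSMO1 (0.43), HMGCS1 (0.38) and FDPS (0.16) were the 7 that rose. The rise of FDPS was lost without CCCP replicate 2 (0.15) and was not called by library size alone (0.04) or as TPM (0.06). HMGCS1, which had fallen the most with CCCP, had 29.5, 29 and 30.2 CPM with acetate, above all libraries with CCCP alone and below all of Sen (IR). ACAT2 had 24.2, 25.1 and 26.6 CPM with CCCP and 17.4, 16.7 and 17.6 CPM with acetate (log2 fold change -0.56 ± 0.07 (SE), adjusted p = 2.26e-07 in edgeR), and 22.2% of its exon bases overlap genes on the other strand. IDI1 (-0.43), LSS, the lanosterol synthase (-0.44), EBP (-0.43) and NSDHL, a sterol dehydrogenase (-0.36), also fell on the log2 scale. SQLE had 44.8, 39.5 and 42.8 CPM with acetate and did not pass the test.

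STARD4 had 22.7, 23.1 and 21.2 CPM with CCCP and 62.1, 64.4 and 68.4 CPM with acetate, the largest rise among the members (log2 fold change 1.54 ± 0.12 (SE), adjusted p = 3.97e-10 in edgeR). SREBF2 had 35.5, 36.6 and 35 CPM and 49.7, 46.9 and 48.6 CPM, also without overlap (log2 fold change 0.44 ± 0.06 (SE), adjusted p = 3.61e-06 in edgeR). INSIG1 went the other way, from 15.4, 17.7 and 13 CPM to 9.68, 8.13 and 9.32 CPM (log2 fold change -0.78 ± 0.12 (SE), adjusted p = 7.01e-06 in edgeR). These 3 genes, which fell together with CCCP, were therefore split in direction by acetate. SREBF1, at 13.4, 11.7 and 11.8 CPM, and SCAP, at 29.5, 27.4 and 27.4 CPM with acetate, did not pass the test.

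FASN had 36, 38.6 and 36.6 CPM with CCCP and 23.5, 21.4 and 20.3 CPM with acetate, the largest fall among the fatty acid enzymes (log2 fold change -0.77 ± 0.11 (SE), adjusted p = 2.55e-06 in edgeR). ELOVL6, which elongates palmitate, had 53.1, 57 and 54.3 CPM and 40.8, 45.2 and 42.9 CPM (log2 fold change -0.35 ± 0.05 (SE), adjusted p = 1.31e-06 in edgeR). FADS2 (-0.34, to 72.2, 58.9 and 60.2 CPM) and SCD (-0.30, to 74.7, 69.5 and 74 CPM) also fell on the log2 scale. All 4 genes were lower in each library with acetate than in each with CCCP alone. Among the efflux genes, ABCG1 rose further to 21.1, 18.9 and 18.7 CPM (log2 fold change 0.34 ± 0.07 (SE), adjusted p = 4.06e-04 in edgeR). MYLIP fell to 18.7, 16.7 and 17 CPM (log2 fold change -0.49 ± 0.06 (SE), adjusted p = 5.11e-07 in edgeR). ABCA1 fell to 78.6, 78.5 and 77.3 CPM (log2 fold change -0.40 ± 0.07 (SE), adjusted p = 5.08e-05 in edgeR). The 3 genes did not overlap between the groups, and with acetate ABCG1 rose while MYLIP and ABCA1 fell.

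Set against Sen (IR) directly, Sen (IR) + CCCP + acetate had 26 members lower and 2 higher, where 32.7% of all genes tested were lower and 33.2% higher. The same 3 libraries of Sen (IR) stand in this comparison and in that of CCCP. Of the sterol enzymes 15 were lower, with a median log2 fold change of -0.65 (-0.32 as TPM), of regulation and transport 4 were lower (median -0.65, and -0.32 as TPM), of the fatty acid enzymes 6 were lower (median -0.44, and -0.11 as TPM), and of the efflux genes 2 were higher and 1 lower. In 27 members all libraries with acetate lay below those of Sen (IR) and in 2 above, as in 33.4% and 34.6% of all genes. SQLE was -1.68 against Sen (IR) with acetate and -1.57 without it, HMGCS1 -1.55 and -1.92, INSIG1 -2.10 and -1.32, and FASN -0.82 with acetate and not called without it. TM7SF2 had 4.79, 5.87 and 4.44 CPM in Sen (IR) and 5.84, 4.19 and 4.24 CPM with CCCP and acetate, HSD17B7 6.74, 6.22 and 5.72 and 6.50, 6.61 and 6.32 CPM, and STARD4 74.5, 73 and 77.8 and 62.1, 64.4 and 68.4 CPM. None of these 3 passed the test, with 95% intervals on the log2 scale of -0.40 to 0.21, -0.23 to 0.33 and -0.44 to 0.03, and for STARD4 the groups did not overlap. Without Sen (IR) replicate 3 the counts stayed at 26 and 2, though ABCA1 was no longer among them. The falls of PMVK (-0.29), CYP51A1 (-0.34) and ABCA1 (-0.19) each depended on single libraries. That of PMVK was lost without Sen (IR) replicate 2 (-0.20) or acetate replicates 1 or 2 (-0.23 and -0.22), that of CYP51A1 without Sen (IR) replicates 1 or 2 (-0.28 and -0.25), and that of ABCA1 without any 1 library but Sen (IR) replicate 1 (-0.16 to -0.17). Library size alone, which moved the median of all genes by 0.13, gave 23 lower and 2 higher, and TPM, which moved it by 0.32, gave 18 lower and 4 higher.

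**Figure D3:**
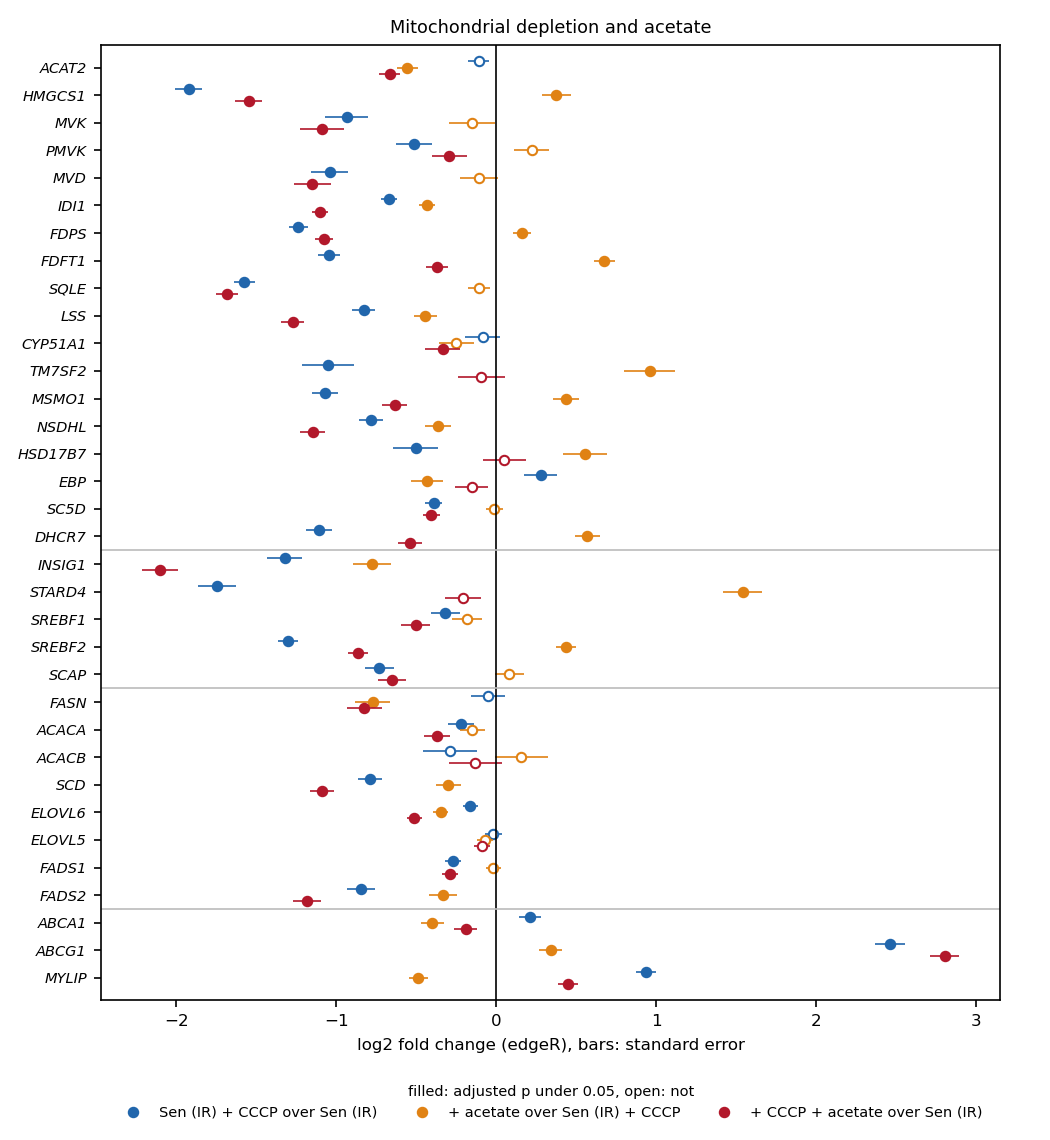
Fitted log2 fold changes (horizontal axis, edgeR, TMM scale) of the 34 genes for Sen (IR) + CCCP over Sen (IR), acetate over Sen (IR) + CCCP, and acetate with CCCP over Sen (IR), with bars for the standard error. Blue points of sterol enzymes and regulation lie left of 0 except EBP, orange points fall on both sides, and the efflux genes, with ABCG1 at 2.46, lie right of 0 for CCCP; on the scale of TPM the filled blue points of SC5D, SREBF1, ACACA, ELOVL6 and FADS1 lie right of 0, and open ones such as FASN and ELOVL5 are also higher with CCCP.

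Senescence by irradiation was compared with proliferation in Sen (IR) against Prol. Of the members 13 rose and 9 fell, where 26.7% of all genes tested rose and 29.9% fell. Among the sterol enzymes 9 rose and 1 fell (median log2 fold change 0.25), in regulation and transport 1 rose and 4 fell (median -0.42), and of the fatty acid enzymes 1 rose and 3 fell (median -0.15, and 0.04 without Prol replicate 2). Of the efflux genes 2 rose and 1 fell. The groups lay apart in 9 members lower and 15 higher in Sen (IR), and in 32.1% and 28.5% of all genes. Without Sen (IR) replicate 3 the members called were 15 higher and 9 lower. Library size alone gave 19 higher and 9 lower, with 13 sterol enzymes higher, and TPM gave 18 and 9, with 12 sterol enzymes higher.

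IDI1 had 66.6, 69.6 and 74.8 CPM in Prol and 133, 131 and 122 CPM in Sen (IR), the largest rise among the members (log2 fold change 0.87 ± 0.05 (SE), adjusted p = 3.21e-12 in edgeR), with 15% of its exon bases shared with a gene on the other strand. NSDHL (0.66), SC5D (0.60), CYP51A1 (0.53), SQLE (0.45), LSS (0.41), DHCR7 (0.38), HMGCS1 (0.32) and FDFT1 (0.25) rose with it on the log2 scale, and ACAT2 (-0.62) was the sterol enzyme that fell. HMGCS1 had 69.3, 65.8 and 72 CPM in Prol and SQLE 100.01, 102 and 96.3 CPM, both below all libraries of Sen (IR). STARD4 had 135, 135 and 139.9 CPM in Prol (log2 fold change -0.87 ± 0.11 (SE), adjusted p = 9.06e-07 in edgeR), SREBF2 114, 125 and 107 CPM (log2 fold change -0.39 ± 0.06 (SE), adjusted p = 9.75e-06 in edgeR) and INSIG1 48.9, 52.9 and 53.2 CPM (log2 fold change -0.42 ± 0.10 (SE), adjusted p = 0.00124 in edgeR), all above every library of Sen (IR). SREBF1 had 24.9, 26.8 and 23.1 CPM in Prol and fell by 0.52, while SCAP had 25.6, 33.7 and 25.8 CPM and rose by 0.64 on the log2 scale.

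SCD fell the most of all members, from 462, 475 and 464 CPM in Prol to 156, 161 and 148 CPM in Sen (IR) (log2 fold change -1.59 ± 0.08 (SE), adjusted p = 1.41e-13 in edgeR). FADS2, with 243, 257 and 232 CPM in Prol (-0.76), and ACACA, with 90.1, 98.7 and 89.6 CPM (-0.65), fell too, and ELOVL6, with 47.9, 49.6 and 48.5 CPM, rose (0.34 on the log2 scale). FASN had 39.3, 51 and 35.2 CPM in Prol, a range that held all 3 libraries of Sen (IR), and did not pass the test. ABCG1 had 3.75, 3.89 and 3.90 CPM in Prol and fell (-0.46), and MYLIP had 7.74, 7.37 and 6.94 CPM and rose (0.80). ABCA1, with 82.2, 80.6 and 74.6 CPM in Prol, was called higher in Sen (IR) (0.17, adjusted p = 0.0441 in edgeR), a call lost without any 1 of the 6 libraries (0.13 to 0.19).

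Transfected mtDNA was compared in Sen (IR) + CCCP + mtDNA against Sen (IR) + CCCP. Of the members 3 rose and 2 fell, where 10.7% of all genes tested rose and 7.4% fell. The groups lay apart in 7 members lower and 5 higher with mtDNA, and in 17.4% and 20.1% of all genes. STARD4 had 36.1, 27.3 and 38.4 CPM with mtDNA, each above every library with CCCP alone (log2 fold change 0.60 ± 0.12 (SE), adjusted p = 0.00146 in edgeR). ABCG1 had 19.4, 18.6 and 21.1 CPM (log2 fold change 0.35 ± 0.07 (SE), adjusted p = 0.00168 in edgeR) and MYLIP 27.7, 29.3 and 29.4 CPM (log2 fold change 0.24 ± 0.06 (SE), adjusted p = 0.00720 in edgeR), also without overlap. ACAT2, with 21.6, 22.2 and 21.4 CPM, and IDI1, with 71.9, 70.2 and 73.4 CPM, fell by 0.22 and 0.17 on the log2 scale, and each call was lost in turn when single libraries were left out (0 to 1 members lower instead of 2, with 0 without CCCP replicates 2 or 3 or mtDNA replicates 1 or 3). HMGCS1 had 24.7, 22 and 22.7 CPM, SQLE 44.9, 46.8 and 46.2, SREBF2 39.4, 37.5 and 35.7 and INSIG1 17.1, 21.2 and 18.7 CPM, and none of these passed the test. Library size alone gave 3 higher and 4 lower, and TPM 2 higher and 4 lower. Over all members the fitted log2 fold changes ran from -0.43 to 0.60, and the 95% intervals reached from -0.82 to 0.86.

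With both treatments, Sen (IR) + CCCP + mtDNA + acetate had 10 members higher and 11 lower than Sen (IR) + CCCP, where 30.3% of all genes tested were higher and 31.4% lower. Against Sen (IR) + CCCP + mtDNA 10 were higher and 11 lower, where 27.4% and 29.9% of all genes were. The groups lay apart in 12 members lower and 9 higher than with CCCP (34.3% and 31.9% of all genes) and in 11 lower and 8 higher than with CCCP and mtDNA (31.8% and 29.5% of all genes). Without replicate 2 of the combined group these counts were 9 and 12, and 9 and 13. Library size alone gave 8 higher and 18 lower against CCCP, with a shift of -0.21 in the median of all genes, and 8 and 15 against CCCP and mtDNA, with a shift of -0.12. TPM gave 8 and 15, with a shift of -0.16, and 8 and 12.

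STARD4 had 75.4, 115 and 78.8 CPM with both, the largest rise of a member over CCCP (log2 fold change 2.00 ± 0.12 (SE), adjusted p = 5.17e-12 in edgeR) and over CCCP and mtDNA (log2 fold change 1.39 ± 0.12 (SE), adjusted p = 1.54e-09 in edgeR). FDFT1 had 91, 106 and 86.3 CPM (0.78 over CCCP and 0.75 over CCCP and mtDNA on the log2 scale). TM7SF2 had 4.63, 4.18 and 4.17 CPM (0.85 and 1.28), against 1.30, 2.05 and 2.00 CPM with CCCP and mtDNA. All 3 genes were higher in each library with both than in each with CCCP, or with CCCP and mtDNA. SREBF2 had 50.5, 58.2 and 54.2 CPM (0.60 and 0.53). FASN had 20.3, 26.3 and 20.5 CPM (-0.74 and -0.54). Neither overlapped with CCCP or with CCCP and mtDNA, SREBF2 lying above and FASN below. INSIG1 had 9.64, 14 and 10.6 CPM (-0.45 and -0.75), where replicate 2 lay within the libraries with CCCP alone.

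Replicate 2 of the combined group was the highest of the 3 for HMGCS1 (30.9, 42.3 and 30.6 CPM), SQLE (44.3, 52.2 and 43.8), STARD4, SREBF2, INSIG1, FASN and SCD (77.3, 101 and 75.1), and its mtDNA transcripts made up 0.237% of counts where the mean of the group was 0.121%. Over Sen (IR) + CCCP + acetate, which asks what mtDNA adds to acetate, STARD4 was the 1 member called, and it was higher (log2 fold change 0.46 ± 0.11 (SE), adjusted p = 0.00966 in edgeR), where 6.57% of all genes were higher and 6% lower. The groups lay apart in 0 members lower and 6 higher, and in 15.2% and 16.1% of all genes. Without replicate 2 the value of STARD4 was 0.24 and 0 members were called, while 5 were called higher without replicate 1. DESeq2 called 6 members higher, and 7 members had an unadjusted p under 0.05 in edgeR.

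Whether the response to acetate differed with mtDNA was tested by the interaction term, the acetate change in the presence of mtDNA minus that in its absence. No member was called by edgeR or DESeq2, where 0.0765% of all genes tested had a positive and 0.583% a negative term. In edgeR 3 members had an unadjusted p under 0.05, ACAT2, IDI1 and ABCG1. The terms of the members ran from -0.27 to 0.32 on the log2 scale, and the widest 95% interval reached 0.51 to either side of its term, so that smaller differences were not detectable for that gene.

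**Figure D4:**
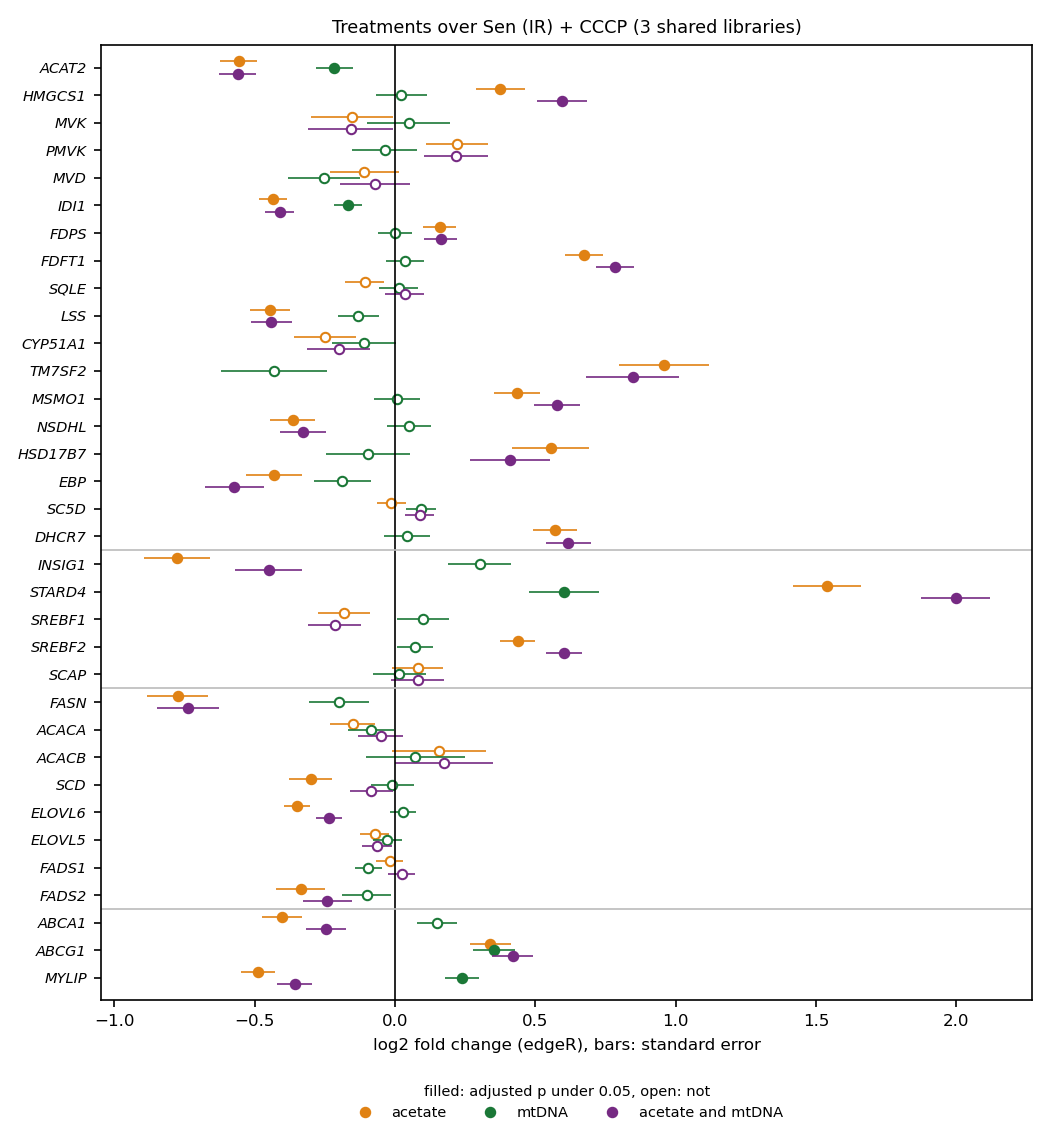
Fitted log2 fold changes (horizontal axis, edgeR, TMM scale) of the 34 genes over the same 3 libraries of Sen (IR) + CCCP for acetate, mtDNA and both, with bars for the standard error. Filled green points for mtDNA are STARD4, ABCG1 and MYLIP right of 0 and ACAT2 and IDI1 left of it, and STARD4 reaches 2.00 with both.

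The 39 other genes of these pathways, among them suppliers of acetyl-CoA, SREBP proteases, sterol transporters and further elongases, gave 20 lower and 9 higher of 38 tested with CCCP (52.6% and 23.7%, against 31.3% and 34% of all genes) and 14 lower and 12 higher with acetate (36.8% and 31.6%, near the 28.3% and 28.8% of all genes). These counts rest on the TMM scale, and other scalings were not run for this list. All 3 genes of acetyl-CoA supply fell with CCCP on the TMM scale. In mean TPM, ACLY was higher with CCCP (356 against 321 in Sen (IR)). ACSS2 (15.1 against 22.7) and SLC25A1 (91.8 against 101) were lower there too. ACLY, the ATP-citrate lyase, had 438, 454 and 369.8 CPM in Sen (IR), 339, 363 and 339 CPM with CCCP and 262, 256 and 252 CPM with CCCP and acetate (-0.28 with CCCP and -0.43 with acetate on the log2 scale). ACSS2, which turns acetate into acetyl-CoA, had 32, 31.6 and 28.4 CPM, 16.3, 14.5 and 14.7 CPM and 17.1, 17.6 and 16.2 CPM (-1.02 with CCCP, and no call with acetate). The citrate carrier SLC25A1 fell by 0.56 on the log2 scale with CCCP.

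MBTPS1, the site-1 protease that makes the first cut in SREBP, had 241, 244 and 239.6 CPM in Sen (IR), 65.2, 60.5 and 59.95 CPM with CCCP (log2 fold change -1.96 ± 0.05 (SE), adjusted p = 2.29e-18 in edgeR) and 121, 116 and 118 CPM with acetate (log2 fold change 0.93 ± 0.05 (SE), adjusted p = 3.02e-13 in edgeR). PLTP, the phospholipid transfer protein and a known LXR target, had 34.4, 36.1 and 28.4 CPM, 8.92, 7.45 and 8.75 CPM (-1.98) and 23.1, 20.1 and 18.8 CPM (1.30). Both genes thus fell with CCCP and rose with acetate. The dehydratase HACD1 fell from 38.2, 41.9 and 34.2 CPM to 8.75, 9.54 and 10.5 CPM with CCCP (-1.99). NPC1, which exports cholesterol from lysosomes, rose with CCCP from 77.3, 84.3 and 70.8 CPM to 329, 352 and 311 CPM (log2 fold change 2.10 ± 0.08 (SE), adjusted p = 2.22e-15 in edgeR) and was at 404, 390.4 and 377 CPM with acetate (0.24). TMEM97, a binding partner of NPC1, had 9.95, 9.71 and 9.37 CPM, 24.9, 22.1 and 24.3 CPM (1.29) and 9.78, 9.14 and 9.61 CPM (-1.32). TMEM97 rose with CCCP and fell with acetate. With acetate, the desaturase family gene FADS3 rose to 91.1, 90.8 and 93.6 CPM from 49.6, 48 and 47.3 CPM (0.93), the elongase ELOVL7 fell to 0.311, 0.220 and 0.189 CPM from 0.780, 0.530 and 0.690 CPM (-1.50) and the acyl-CoA synthetase ACSL5 fell to 0.691, 0.947 and 0.798 CPM from 2.31, 2.32 and 1.60 CPM (-1.35). ELOVL7 and ACSL5 were low in these libraries, so that few reads carry their falls.

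Counts of genes that share exon bases with others are uncertain. The study's methods mention counting by strand for strand-specific libraries, and do not say there whether these libraries were of that kind. Besides EBP, ACAT2 and IDI1, this touches CYP51A1 (74.1% of exon bases shared), HMGCS1 (37.7%, with a gene on the other strand) and FDPS (18.6%). On position, 5 of the 34 members lie on chromosome 11, of which FADS1 and FADS2 overlap.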

How the data were processed

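Poly(A) RNA was sequenced in 18 paired-end libraries. Per the study's methods and processing notes, the authors cleaned the reads (Trimmomatic 0.36), mapped them with STAR 2.5.2b on GRCh38, and assigned them to genes by featureCounts (Subread 1.5.2). The authors deposited raw counts per gene, without normalization, and TPM, which divide counts by gene length and library total. The strand setting is not given in the sources used here. TPM served to compare genes within a group, to check markers and as an added scaling, and the median of all genes moves between groups on that scale.

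All 18 libraries and their 6 groups entered 1 quasi-likelihood fit of edgeR 4.0.16 (R 4.3.3) on the counts (TMM, filterByExpr, 16994 of 57500 genes, common biological coefficient of variation 0.0644). Contrasts were tested two-sided with Benjamini-Hochberg adjustment over all genes tested and a threshold of 0.05. CPM use TMM-scaled library sizes, and values ± are SD over 3 libraries or SE of a fit. Libraries held 24624886 to 46224280 counts, and the lowest members have the widest intervals. Genes shown library by library are, by rule, the 2 members of each role (4 among sterol enzymes) with the largest change past the threshold with CCCP and with acetate, all of regulation and efflux, and the 3 largest rises and falls of the other pathway genes, of which 1 is not reported here; HSD17B7, CYP51A1, EBP, ACACA, IDI1, the acetyl-CoA supply genes and others outside it were named with values already seen. The members and lists were chosen with earlier results of these data known. Same-numbered libraries shared little of their deviations from the group means (correlations from -0.219 to 0.182, 2 of 45 over 0.1). With 3 libraries per group this cannot exclude that a number marks the same experiment. No 2 libraries of 1 group were duplicates, and pairs across groups were not checked. Every column of the tables was mapped to a library. The procedure was also run on simulated counts, for Sen (IR) + CCCP against Sen (IR) only. These had the same spread for every gene and no library that stood apart, unlike the real data. The outcome is not given here, and no result rests on it. Alternatives were DESeq2 1.42.0 (size factors, Wald test, and the study's cutoffs, a nominal p of 0.05 with a log2 fold change beyond 0.5 in size), other filters and scalings, a replicate block, the groups compared alone, and each library left out. Gene positions are from GENCODE release 44 and promoters from RefSeq, both on GRCh38.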

Additional observations from a re-analysis of the deposited data

How the results depend on the processing

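Of the 149 calls of members over the 8 comparisons of groups, all kept their direction and side of the threshold with DESeq2's size factors and with at least 10 counts in every library, 147 with DESeq2's Wald test, 148 with only the groups compared and 140 without a filter on low counts. The study's rule, which asks for an absolute log2 fold change above 0.5, kept 84 and so left fewer calls: 6 higher in Sen (IR) against Prol, 2 higher with CCCP, 5 higher and 3 lower with acetate, 1 higher and 0 lower with mtDNA, 3 lower with both against CCCP, 3 lower with both against mtDNA, 0 higher with both against acetate and 1 higher with acetate against Sen (IR). Of 894 values with 1 library left out, 844 were kept and 50 were no longer called. The replicate number as a block kept 148 of 149 calls (12 members higher in Sen (IR) against Prol instead of 13). The labels do not say whether samples with the same number share more than that number.

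Scalings added after seeing the data changed more. On the scale of TPM, 11 members were higher with CCCP, 4 lower with mtDNA and 4 higher with acetate against Sen (IR). By library size alone 19 were lower with acetate, 4 lower with mtDNA and 18 lower with both against CCCP. Among members called, signs turned as TPM with CCCP for SC5D (0.035), SREBF1 (0.11), ACACA (0.20), ELOVL6 (0.26), FADS1 (0.16) and the median of the fatty acid enzymes (0.18), for PMVK (0.037), FADS1 (0.039) and ABCA1 (0.14) with acetate against Sen (IR), and for the median of regulation with acetate (-0.018). By library size alone they turned for ACACA (0.033), ELOVL6 (0.10) and the fatty acid median (0.011) with CCCP, FDPS with both against CCCP (-0.017) and the median of regulation with acetate (-0.041), and without Prol replicate 2 for the fatty acid median in Sen (IR) against Prol, whose range with single libraries left out was -0.30 to 0.040. Each scaling changes only the library sizes, and so moves all genes of a comparison together. The shares of all genes called were not counted on these added scales.

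The small counts varied most. With mtDNA, 2 members were lower, 0 without a filter on low counts, 5 with only the groups compared and 0 to 1 with a library left out. With both against acetate, 1 member was higher, 4 with DESeq2's size factors, 6 with DESeq2's Wald test, 3 without a filter, 0 with only the groups compared and 0 to 5 with a library left out. Beyond that construction the cause was not tested. Total counts of 24624886 or more per library limit ACACB and the other lowest members the most.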
